A study of Mus musculus with 4 samples.

Results

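The interleukin-1 (IL-1) family and its inflammasome sensor were followed by cell class and day through a time course of wire injury of the mouse carotid artery. The set was chosen by gene name, with earlier results of these data known, and holds 10 of the 31053 genes listed in the count matrices: the ligands Il1a, Il1b, Il18 and Il33, the receptor antagonist Il1rn, the receptor chains Il1r1, Il1rap and Il1rl1, the decoy receptor Il1r2, and Nlrp3. Every member gave UMIs (unique molecular identifiers, each standing for 1 captured transcript). Their totals over the cells kept were 45475 for Il1b, 3996 for Il1rn, 3676 for Il33, 3627 for Il1r2, 3080 for Nlrp3, 2318 for Il1r1, 1037 for Il1rap, 978 for Il18, 496 for Il1rl1 and 237 for Il1a.

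Single-cell RNA-sequencing libraries were made from carotid arteries of male C57BL/6 mice, 11 weeks old before injury and fed chow, with the 10x Genomics 3′ chemistry. Day 0 is the uninjured vessel, and days 3, 7 and 14 count from wire injury of the left carotid, which strips the endothelium and stretches the wall. No library carried a gene deletion or a treatment other than the injury. At least 5 carotids were pooled for each post-injury day, vessels with signs of thrombosis were left out, and dead cells were removed before loading. Each day is therefore 1 library of pooled animals, so a difference between days and a difference between libraries cannot be told apart. No p-value was computed, and the 95% intervals given are exact Poisson, ratio or binomial intervals that cover counting error only.

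IL-1α and IL-1β are early alarm cytokines that act through one receptor, built from the chain encoded by Il1r1 and the accessory chain encoded by Il1rap, and switch on NF-κB. IL-1β and IL-18 are made as inactive precursors that caspase-1 cleaves within the NLRP3 inflammasome, whereas IL-1α and IL-33 can act when damaged cells release them. The protein encoded by Il1rn occupies the IL-1 receptor without signalling, the decoy encoded by Il1r2 binds IL-1 without signalling, and the chain encoded by Il1rl1 (ST2) receives IL-33. In arteries the family is known for links between leukocyte infiltration and the activation of stromal cells after damage.

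After filtering, 5621 of 6161 barcodes were kept, 329, 1508, 2693 and 1091 on days 0, 3, 7 and 14, with median depths between 4818 and 9481 UMIs per cell. Cells were clustered without the 10 genes or the pathway genes described below, and classes were named from marker genes. The fibroblast-like class held 239, 211, 223 and 551 cells on the 4 days, the monocyte/macrophage-like class 3, 525, 942 and 195, the dendritic-like class 0, 151, 318 and 34, the neutrophil-like class 0, 234, 120 and 0, and the T cell-like class 18, 65, 362 and 96. Smooth muscle-like cells numbered 19, 104, 67 and 78, and endothelial-like cells 7, 40, 56 and 24, so these labelled components of an artery were thinly sampled, above all on day 0. A further 629 cells (11.2%) stayed unnamed. Levels are given in CPM, the summed UMIs of a gene scaled to 1000000 UMIs of the class on that day, and were compared between days where both sums held at least 10 cells and the gene had at least 20 UMIs over both. With 3 monocyte/macrophage-like cells and no neutrophil-like or dendritic-like cell on day 0, immune classes were set against day 3 and stromal classes against day 0.

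Of 5944 distinct barcodes, 217 occurred in more than 1 library, 152 of them on days 0 and 3 and 64 on days 7 and 14. In 214 of the 217 the deeper copy held at least 5 times the UMIs of the shallower, with median depths of 19880 and 759 UMIs for the day 0 and 3 pairs. Shallower copies made up 216 of the 5621 cells, among them 94 of the 211 fibroblast-like cells of day 3 and 8 of the 19 smooth muscle-like cells of day 0. Leaving them out moved none of the 69 ratios between days by more than its counting interval. For Il1r1 in fibroblast-like cells of day 3 the level was 141 CPM with them and 143 CPM without. Means over cells, given below beside the sums, kept the shallower copies and were not recomputed without them.

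Promoter sequence is shown for Il1b, the member with most UMIs and a myeloid gene in these libraries, and for Il33, a fibroblast gene, because these members mark the opposite ends of the distribution over cell classes. Each line gives the 250 bases before an annotated start, 5′ to 3′ on the gene's strand, from RefSeq on build GRCm38.p6. The first lies at chr2:129371140-129371389 on the minus strand, and the 2 starts of Il33 at chr19:29924863-29925112 and chr19:29945540-29945789 on the plus strand. Capitals mark matches to a C/EBP motif (TTNNGNAA) or a TATA motif (TATAAA) on either strand.
Il1b: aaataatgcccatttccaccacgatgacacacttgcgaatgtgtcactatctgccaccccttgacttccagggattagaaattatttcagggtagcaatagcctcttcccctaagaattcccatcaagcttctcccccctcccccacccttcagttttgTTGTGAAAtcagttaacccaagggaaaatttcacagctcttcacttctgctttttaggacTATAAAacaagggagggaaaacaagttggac
Il33, first start: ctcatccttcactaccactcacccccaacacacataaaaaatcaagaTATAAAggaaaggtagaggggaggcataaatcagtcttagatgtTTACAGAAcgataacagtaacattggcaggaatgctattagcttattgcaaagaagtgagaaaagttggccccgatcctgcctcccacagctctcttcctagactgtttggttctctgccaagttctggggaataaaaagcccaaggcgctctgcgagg
Il33, second start: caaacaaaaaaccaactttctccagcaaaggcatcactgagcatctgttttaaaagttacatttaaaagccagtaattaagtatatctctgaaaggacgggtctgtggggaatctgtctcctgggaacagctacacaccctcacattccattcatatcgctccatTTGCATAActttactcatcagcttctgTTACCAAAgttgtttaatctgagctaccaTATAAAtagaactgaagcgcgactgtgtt

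In the Il1b sequence the C/EBP match spans positions -91 to -84 before the start and the TATA match -31 to -26. The second start of Il33 has a TATA match at nearly the same distance, -29 to -24, and C/EBP matches at -85 to -78 and -58 to -51. The first start of Il33 has its matches farther out, at -159 to -152 (C/EBP) and -203 to -198 (TATA). Over all 10 members and every annotated start, 7 held the C/EBP letters and 4 (Il1a, Il1b, Il18 and Il33) the TATA letters, against 36.8% and 12.4% of 32851 mouse promoters of the same length. An NF-κB motif (GGGA and CC with any 4 bases between, in 17.6% of promoters) was found for Il1rn, Nlrp3 and Il1rap, an AP-1 motif (TGANTCA, 6.75%) for Il1rn and Il1a, and a Spi1 motif (GAGGAA, 23.3%) for Il1a and Nlrp3, where in Il1a it overlapped the C/EBP match. A gene with several starts has more than 1 chance of a match, and a match describes letters, not binding.

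Across classes the members fell into a myeloid and a stromal pattern. Il1b, Il1a, Il1rn, Il1r2, Il1rap and Nlrp3 were highest in neutrophil-like cells on both days when these were present. Il1rap followed the myeloid pattern in those cells alone. Its intervals in monocyte/macrophage-like and fibroblast-like cells overlapped on days 3 and 7, and on day 0 fibroblast-like cells had 28.7 CPM. Il33 was highest in fibroblast-like cells on all 4 days. Il1r1 was highest in fibroblast-like cells on days 3 and 7, and on day 14 its intervals in endothelial-like, fibroblast-like and smooth muscle-like cells overlapped. Il18 stood apart, with the highest level in monocyte/macrophage-like cells on day 3 and in fibroblast-like cells on day 0. Il1rl1 was highest in T cell-like cells on all 4 days, on day 0 from 1 cell. On day 3 its interval in T cell-like cells overlapped that in dendritic-like cells.

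**Figure D1:**
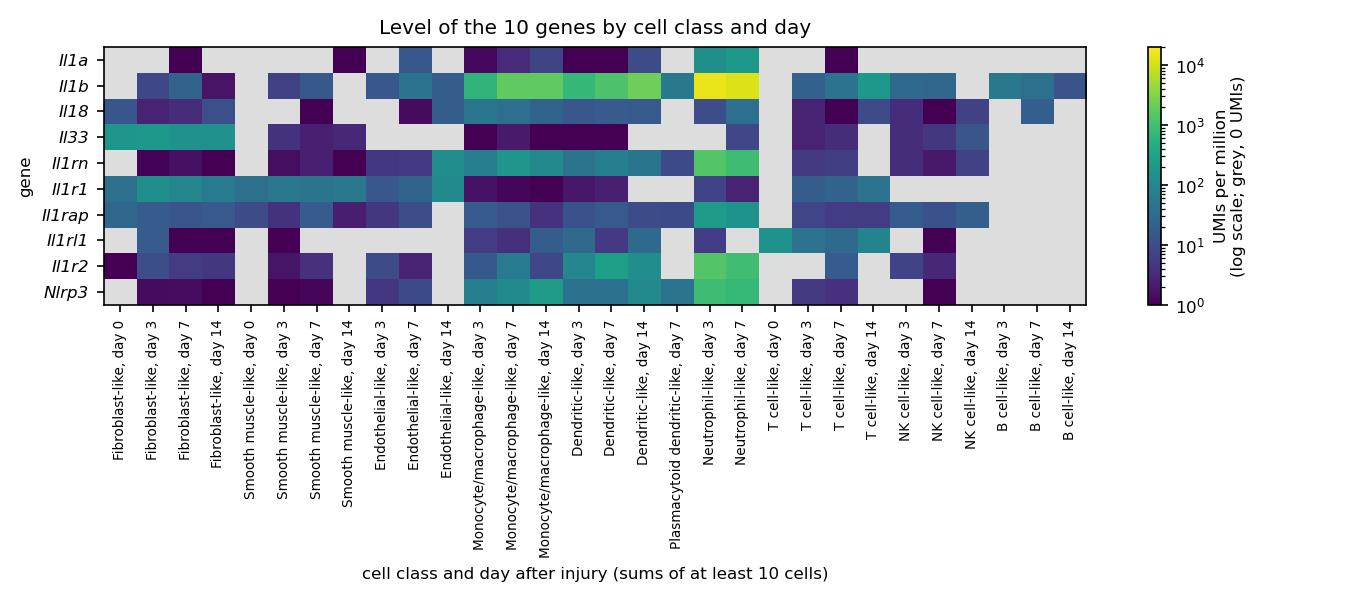
Level of each of the 10 genes (rows) in each cell class and day with at least 10 cells (columns), as CPM on a logarithmic colour scale on which levels under 1 share the lowest colour and grey marks 0 UMIs. The brightest cells are those of Il1b in the neutrophil-like columns, 15040 CPM on day 3 and 12056 CPM on day 7, whereas Il33 is bright in the fibroblast-like columns alone, at 149 to 196 CPM.

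Il1b, the gene of the IL-1β precursor, was the most abundant member. On day 0 the library held 6 Il1b UMIs, all in 1 monocyte/macrophage-like cell. By day 3 the total was 15462 UMIs, and neutrophil-like cells, 15.5% of the cells of that day, held 65.5% of them. Their level was 15040 CPM (95% interval 14749 to 15336, 10129 UMIs) on day 3 and 12056 CPM (11706 to 12415, 4476 UMIs) on day 7, a ratio of 0.802 (0.774 to 0.830). The neutrophil-like level therefore stayed within the 2-fold limit, and its interval lay above that of every other class on both days.

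In monocyte/macrophage-like cells the Il1b level was 654 CPM (632 to 677) on day 3, 1750 CPM (1723 to 1777) on day 7 and 1762 CPM (1694 to 1831) on day 14. Day 7 was 2.67-fold (2.57 to 2.78) and day 14 2.69-fold (2.56 to 2.84) above day 3, so the level was higher on both later days. With every UMI weighted equally days 7 and 14 were nearly equal, but as a mean over cells they were at 2069 and 1449 CPM, and the log2 difference of day 14 was 0.91 and no longer past 2-fold. Neutrophil markers in the same sums came to 100.4, 198 and 43.2 CPM on days 3, 7 and 14 (9, 8 and 5 of 10 found). Of these markers, S100a9 was at 13.2, 6.80 and 0 CPM and S100a8 at 20.0, 5.92 and 2.05 CPM, so both were lower on day 7 than on day 3. The part of these markers in the Il1b levels was not tested. Dendritic-like cells were higher in each later library, with 744 CPM (711 to 778), 1268 CPM (1234 to 1302) and 2219 CPM (2053 to 2394), the last from 34 cells, and ratios of 1.70 (1.62 to 1.80) and 2.98 (2.73 to 3.26). On day 7 monocyte/macrophage-like cells held 60.0% of the 26606 Il1b UMIs, dendritic-like cells 20.1% and neutrophil-like cells 16.8%, and on day 14, with no neutrophil-like cell in the library, the first 2 classes held 75.6% and 19.6% of 3401.

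After each cell was thinned to 1000 UMIs, 96.9% and 93.5% of neutrophil-like cells had an Il1b UMI on days 3 and 7. The share of monocyte/macrophage-like cells was 29.3%, 55.6% and 34.8% on days 3, 7 and 14 (49.3%, 81.6% and 42.1% before thinning), so on day 14 fewer cells held a UMI than on day 7. In fibroblast-like cells the thinned share was 1.54% on day 3 and 3.45% on day 7, and in T cell-like cells 2.79% on day 7. Median depths were 2856.5 and 3040 UMIs in neutrophil-like cells and 7283, 9027 and 6626 UMIs in monocyte/macrophage-like cells.

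Low Il1b levels appeared in the other classes after injury. Fibroblast-like cells had no Il1b UMI on day 0, 8.14 CPM (37 UMIs) on day 3, 23.6 CPM (120 UMIs) on day 7 and 1.68 CPM (15 UMIs) on day 14. Against a floor of 3 UMIs for day 0 these were at least 6.05-fold higher on day 3 and at least 17.6-fold higher on day 7. The macrophage gene Lyz2 moved alongside in the same sums, at 0.449, 24.6, 44.9 and 14.5 CPM, and the neutrophil gene S100a9 was at 3.52 and 2.56 CPM on days 3 and 7. The fibroblast-like sums held 231 and 923 Il1b UMIs per 100 S100a9 UMIs on those days, against 70.3 and 78.8 in neutrophil-like cells and 4969 and 25734 in monocyte/macrophage-like cells, and so lay between these classes. The part of free RNA or of attached myeloid cells in these low levels was not tested. In T cell-like cells of day 14, 103 of 104 Il1b UMIs lay in 1 cell, and the level of 200 CPM was 2.00 CPM without that cell.

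**Figure D2:**
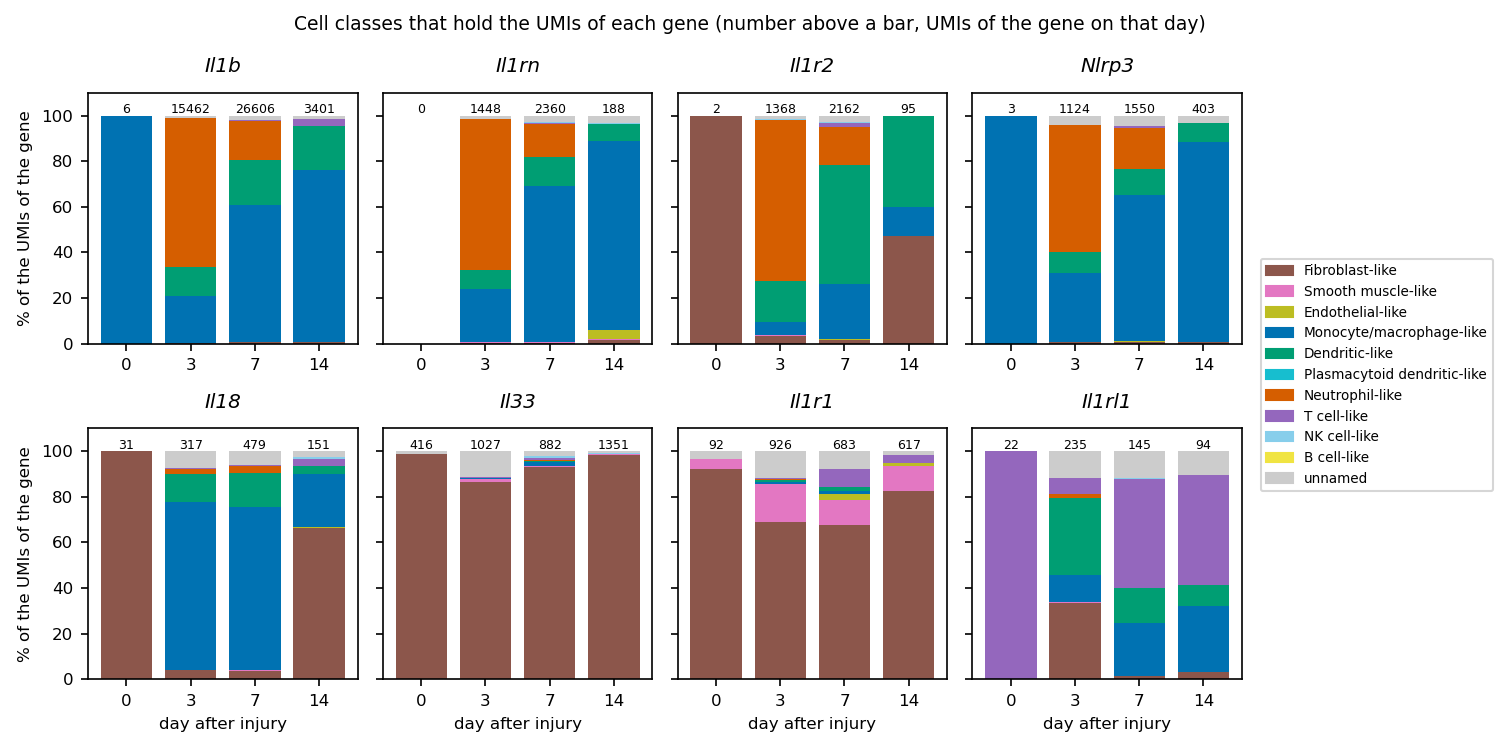
Share of the UMIs of 8 genes held by each cell class on each day, as a percentage, with the number of UMIs of the gene that day above each bar. The Il1b, Il1rn and Nlrp3 bars pass from mostly neutrophil-like on day 3 (65.5%, 66.4% and 55.6%) to mostly monocyte/macrophage-like on day 7 (60.0%, 68.4% and 64.1%), while the Il33 bars are 86.7% to 98.6% fibroblast-like on every day.

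Within the monocyte/macrophage-like class Il1b differed widely between clusters. Cluster 0, led by Lyz2, Cd14 and Cd74 and holding the monocyte genes Plac8 (2006 CPM) and Ly6c2 (250 CPM), had 3061 CPM of Il1b on day 3, 3134 CPM on day 7 and 5583 CPM (5194 to 5993, 14 cells) on day 14. Cluster 1, led by the complement genes C1qb and C1qa, had 484, 737 and 1557 CPM (1486 to 1631). Cluster 7, led by Lyz2, Ccl6 and Pf4, was the lowest, with 324 and 305 CPM on days 3 and 7. Cluster 9 (Lyz2, Acp5, H2-Ab1) had 657, 1447 and 183 CPM, and cluster 19 (Lyz2, C1qb, Pf4) 394 and 1273 CPM. Cluster 9 also had a median of 2399 UMIs per cell and neutrophil markers at 1378 CPM (8 of 10 found), against 52.0 to 146 CPM in the other 4 clusters, and their part in its Il1b level was not tested.

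The makeup of the class changed between libraries at the same time. Cluster 7 held 280 of the 525 cells of day 3 and 43 of 942 on day 7, cluster 0 held 64 and then 421, and cluster 1 held 137 of the 195 cells of day 14. The class level of Il1b on day 7 was 2.67-fold that of day 3, while cluster 0 itself was at 3061 and 3134 CPM. Cluster 7 was at 324 and 305 CPM on these days. Clusters 1, 9 and 19 were higher on day 7, at 484 and 737, 657 and 1447, and 394 and 1273 CPM. The part of the changed makeup in the class level was not tested. A cluster that comes mostly from 1 library may be that library and not a cell state. This holds for cluster 7, with 280 of 325 cells from day 3, and for cluster 0, with 421 of 499 from day 7.

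**Figure D3:**
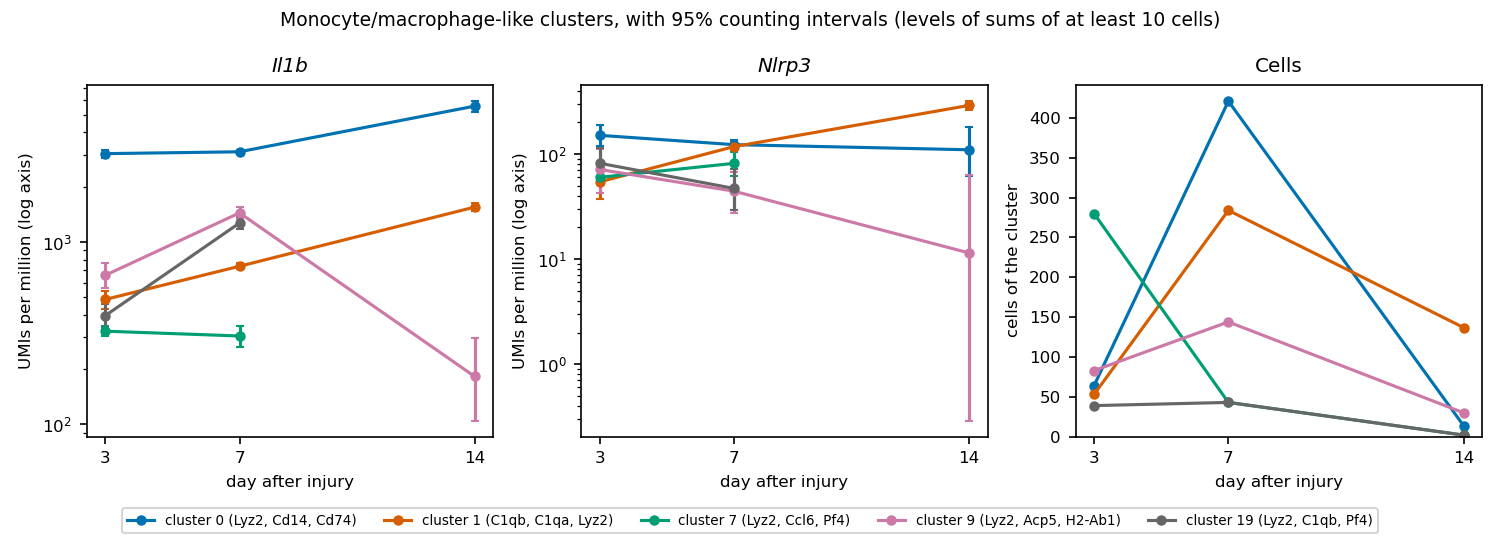
Il1b and Nlrp3 levels (CPM, logarithmic axes, bars for 95% counting intervals) and number of cells of the monocyte/macrophage-like clusters by day after injury. Il1b is highest in cluster 0 on each day, up to 5583 CPM, and Nlrp3 in cluster 1 goes from 54.3 CPM on day 3 to 290 CPM on day 14.

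Il1a, the second agonist of the IL-1 receptor, was rare and almost a neutrophil gene in these data. No UMI was found on day 0. Neutrophil-like cells had 138 CPM (111 to 169, 93 UMIs in 28 cells) on day 3 and 197 CPM (154 to 247, 73 UMIs in 19 cells) on day 7, a ratio of 1.42, and held 93.0% and 59.8% of the UMIs of those days. The monocyte/macrophage-like level was 1.23, 3.29 and 7.53 CPM, from 6, 30 and 11 UMIs, with 8 of the 11 UMIs of day 14 in 1 cell. The ratio of day 7 to day 3 was 2.67 (1.09 to 7.83), but as a mean over cells its log2 value with 10 CPM added turned from 0.24 to -0.23. In the endothelial-like sum of day 7, all 11 UMIs came from 1 cell. At 1000 UMIs per cell 7.62% and 10.2% of neutrophil-like cells had an Il1a UMI, against 0.388% and 0.326% of monocyte/macrophage-like cells.

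Il18, the other caspase-1 substrate, was spread between macrophages and fibroblasts. Monocyte/macrophage-like cells had 48.3 CPM (42.4 to 54.9) on day 3, 37.5 CPM (33.6 to 41.7) on day 7 and 24.0 CPM (16.7 to 33.3) on day 14. The day 14 to day 3 ratio was 0.496 (0.337 to 0.709), opposite in direction to that of Il1b in the same cells. Fibroblast-like cells had 13.9 CPM (9.45 to 19.7, 31 UMIs) on day 0, 2.64 CPM on day 3, 3.55 CPM on day 7 and 11.2 CPM (9.09 to 13.6, 100 UMIs) on day 14, with ratios to day 0 of 0.190 (0.0888 to 0.380), 0.255 (0.134 to 0.470) and 0.804 (0.532 to 1.24). The fibroblast level was thus lower on days 3 and 7, and its day 14 interval overlapped that of day 0.

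Fibroblast-like cells held all 31 Il18 UMIs of day 0 and 66.2% of the 151 of day 14, and monocyte/macrophage-like cells held 74.1% and 71.4% on days 3 and 7. Dendritic-like cells were at 14.6, 17.1 and 16.7 CPM, the last from 5 UMIs. Neutrophil-like cells went from 10.4 CPM (7 UMIs) to 37.7 CPM (14 UMIs), a ratio of 3.63 (1.37 to 10.6) that rests on few molecules. Among macrophage clusters Il18 was highest in cluster 19 on days 3 and 7, at 113 and 64.2 CPM, against 66.8 and 44.5 CPM in cluster 0 and 43.2 and 28.5 CPM in cluster 1.

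Il33, the nuclear alarmin read by ST2, was a fibroblast gene throughout. Fibroblast-like cells had 184 CPM (167 to 203) on day 0, 196 CPM (183 to 209) on day 3, 161 CPM (150 to 173) on day 7 and 149 CPM (141 to 157) on day 14. No day was 2-fold apart from day 0, the ratio being 1.07 (0.946 to 1.20) on day 3, 0.877 (0.778 to 0.990) on day 7 and 0.809 (0.723 to 0.905) on day 14. Fibroblast-like cells held 98.6% of the 416 Il33 UMIs of day 0, 86.7% of 1027, 92.9% of 882 and 98.5% of 1351. At 1000 UMIs per cell 13.5%, 14.6%, 10.3% and 12.6% of fibroblast-like cells had an Il33 UMI. Smooth muscle-like cells were at 0, 4.25, 2.38 and 3.11 CPM, and endothelial-like cells gave no Il33 UMI in the sums of days 3, 7 and 14.

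Il1rn, which encodes the IL-1 receptor antagonist, was highest in neutrophil-like cells, as Il1b was. It had no UMI on day 0. Neutrophil-like cells had 1427 CPM (1338 to 1520) on day 3 and 924 CPM (829 to 1027) on day 7, a ratio of 0.647. Monocyte/macrophage-like cells had 69.3 CPM (62.1 to 77.1), 177 CPM (169 to 186) and 107 CPM (90.7 to 125), or 2.55 times (2.27 to 2.88) the day 3 level on day 7 and 1.54 times (1.27 to 1.87) on day 14. With every cell given equal weight, day 14 was instead below day 3, at 69.7 against 86.7 CPM. The antagonist was therefore highest in this class on day 7. The summed neutrophil markers given with Il1b were also highest that day, but S100a8 and S100a9 among them were highest on day 3. The part of these markers was not tested. Dendritic-like cells had 45.1, 71.2 and 46.7 CPM, the last from 14 UMIs, and so were below monocyte/macrophage-like cells on each day, whereas for Il1b they were above them on days 3 and 14.

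The 3′ chemistry tags each transcript once near its end, but capture can differ between genes, so the ratio of antagonist to agonist transcripts was compared between days and not read as an amount. Monocyte/macrophage-like cells held 10.6, 10.1 and 6.07 Il1rn UMIs per 100 Il1b UMIs on days 3, 7 and 14. Dendritic-like cells held 6.06, 5.62 and 2.11, and neutrophil-like cells 9.49 and 7.66. In each class the ratio was lowest on its last day. Among macrophage clusters Il1rn was highest in cluster 0 on day 3 (153 CPM) and in clusters 7 and 0 on day 7 (254 and 243 CPM), and the Ccr7, Fscn1 and Ccl22 dendritic cluster had 149 and 167 CPM on those days. The 130 CPM of endothelial-like cells on day 14 came from 7 UMIs in 1 cell.

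Il1r1, the signalling receptor, had a stromal pattern with the reverse distribution of its ligand. Fibroblast-like cells had 38.1 CPM (30.5 to 47.1, 85 UMIs) on day 0, 141 CPM (130 to 152, 640 UMIs) on day 3, 90.8 CPM (82.7 to 99.5, 461 UMIs) on day 7 and 57.0 CPM (52.1 to 62.1, 510 UMIs) on day 14. This was 3.69 times the day 0 level (2.94 to 4.69) on day 3, 2.38 times (1.89 to 3.04) on day 7 and 1.49 times (1.19 to 1.90) on day 14, so the level was highest on day 3 and lower in each later library. As a mean over cells the levels were 33.2, 81.4, 83.5 and 61.8 CPM, and day 3 was then not above day 7. That mean gave full weight to the 94 shallower barcode copies among the 211 fibroblast-like cells of day 3. This class held 92.4%, 69.1%, 67.5% and 82.7% of the Il1r1 UMIs of the 4 days. At 1000 UMIs per cell 3.85%, 10.8%, 8.37% and 5.93% of fibroblast-like cells had a UMI, against 0.388% and 0.326% of monocyte/macrophage-like cells on days 3 and 7.

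Different clusters held most fibroblast-like cells on each day: clusters 15 and 8 on day 0, clusters 8, 20 and 3 on day 3, cluster 3 on day 7 and clusters 3 and 14 on day 14. Cluster 20, led by Col1a1, Col3a1 and Sparc, had 42 cells on day 3 and 29 on day 7 and held 557 of the 640 and 290 of the 461 Il1r1 UMIs. Its Il1r1 level was 206 CPM (189 to 224) and 238 CPM (212 to 268), while cluster 3 (Sparc, Dcn, Col1a1) stayed at 47.2, 43.0 and 50.7 CPM on days 3, 7 and 14. Cluster 15 had 34.5 CPM on day 0 and 60.0 CPM on day 14. Cluster 8 had 56.8, 37.5, 39.4 and 95.8 CPM on the 4 days, from 23, 6, 5 and 36 UMIs. Its intervals on days 3 and 7 were wide, 13.8 to 81.6 and 12.8 to 91.9 CPM. Of the 211 fibroblast-like cells of day 3, 94 were shallower barcode copies, which were not split by cluster.

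Cluster 20 was also the deepest fibroblast cluster, with a median of 55386.5 UMIs per cell, and it had no cell on day 0 and 1 on day 14. It expressed the fibroblast gene Pdgfra at 412 CPM and the contractile gene Cnn1 at 1.53 CPM. The same cluster had the highest Il33 level on day 7, 272 CPM, against 116 CPM in cluster 3 and 206 CPM in cluster 14. When every cell was given equal weight in place of every UMI, the log2 difference of Il1r1 between days 3 and 0 was 1.08 in place of 1.65. The part of depth, or of cells caught together, in the high Il1r1 level of cluster 20 was not tested.

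**Figure D4:**
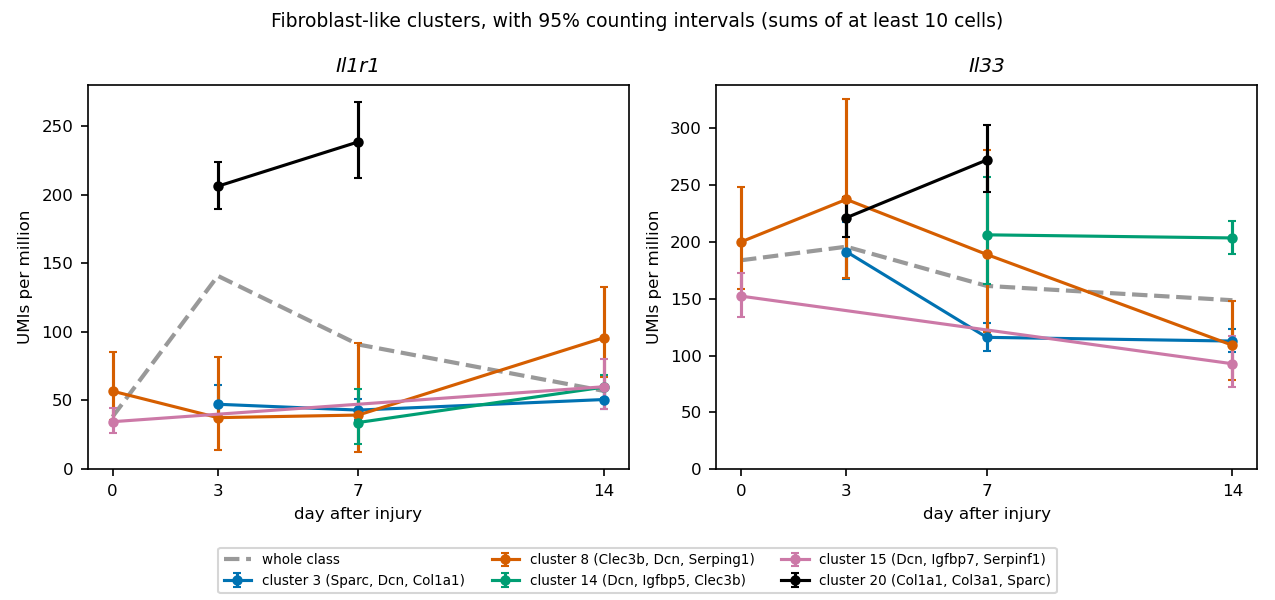
Il1r1 and Il33 levels (CPM, bars for 95% counting intervals) of 5 fibroblast-like clusters on days with at least 10 cells, with the whole class as a dashed line (cluster 4, whose cells had a median of 831 UMIs, is not drawn). For Il1r1, cluster 20 lies at 206 and 238 CPM on days 3 and 7 while clusters 3, 8 and 14 lie at or under 47.2 CPM on those days. Cluster 8 then rests on 6 and 5 Il1r1 UMIs. For Il33 the clusters lie closer together.

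Outside fibroblasts Il1r1 was present in smooth muscle-like cells at 38.5 CPM on day 0 (4 UMIs), 53.5 CPM (45.3 to 62.8), 44.7 CPM (35.2 to 56.0) and 52.9 CPM (41.1 to 67.1), with overlapping intervals on all 4 days. Neutrophil-like, monocyte/macrophage-like and dendritic-like cells, the main holders of Il1b, were at or under 7.42 CPM on every day. In T cell-like cells the level was 18.7, 23.8 and 44.3 CPM on days 3, 7 and 14. The highest level there was in cluster 21, led by the γδ T cell receptor gene Trdc with Cd163l1 and Cd3g, at 171 CPM (113 to 249) on day 7 and 316 CPM (198 to 479) on day 14 from 25 and 16 cells. By count, cluster 11 (Trbc2, Cd3g, Cd3d) held all 7 UMIs of day 3 (58.0 CPM), 26 of the 53 of day 7 (26.8 CPM), where cluster 21 held 27, and 1 of the 23 of day 14. Of the 48 T cell-like cells with an Il1r1 UMI, 28 (58.3%) had a Trdc UMI, against 50 of the 493 without (10.1%), at median depths of 7087.5 and 5262 UMIs. Il7r was found in 47 of the 48 and 324 of the 493, and Rora in 40 and 236.

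Il1rap, the shared accessory chain, was highest in neutrophil-like cells, at 241 CPM (205 to 281) on day 3 and 159 CPM (121 to 205) on day 7, a ratio of 0.661. Fibroblast-like cells had 28.7 CPM (22.1 to 36.7) on day 0 and 17.6, 13.6 and 15.9 CPM afterwards, the ratio to day 0 being 0.613 (0.436 to 0.866), then 0.474 (0.332 to 0.676) and at last 0.553 (0.409 to 0.754). Of these the day 7 level alone was past 2-fold. As a mean over cells, with the shallower barcode copies kept, Il1rap on day 3 was above day 0, at 33.0 against 23.4 CPM. In monocyte/macrophage-like cells it was 18.1, 12.4 and 4.11 CPM, the last from 6 UMIs, with a day 14 ratio of 0.227 (0.0811 to 0.514). Dendritic-like cells lay between 10.0 and 15.9 CPM, with very few UMIs behind the day 14 level.

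Il1rl1, which encodes ST2, was found in few cells. T cell-like cells had 42.7 CPM on day 3 (16 UMIs in 2 cells), 30.9 CPM (24.1 to 39.2, 69 UMIs in 19 cells) on day 7 and 86.6 CPM (63.2 to 116, 45 UMIs in 10 cells) on day 14. The day 14 ratio was 2.03 (1.13 to 3.85), and on day 0 all 22 UMIs lay in 1 cell. Most came from cluster 11 (Trbc2, Cd3g, Cd3d), at 133, 70.1 and 184 CPM, and cluster 21 gave none on days 7 and 14. Dendritic-like cells had 30.8 CPM (24.4 to 38.4, 80 UMIs in 34 cells) on day 3 and 5.22 CPM (3.27 to 7.91) on day 7, a ratio of 0.170 (0.101 to 0.275), and then 30.0 CPM from 9 UMIs on day 14. Among monocyte/macrophage-like cells the level was 5.76, 3.73 and 18.5 CPM, with a day 14 ratio of 3.21 (1.82 to 5.65). Over the alternatives run its log2 ratio ranged from 0.24 to 1.53, and under at least 1 it was not past 2-fold. In fibroblast-like cells of day 3, 77 of 78 Il1rl1 UMIs lay in 1 cell, and the level of 17.2 CPM was 0.223 CPM without it.

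The 32 T cell-like cells with an Il1rl1 UMI were compared with the 509 without, at median depths of 6801 and 5361 UMIs. Gata3, the type 2 transcription factor, was found in 27 of the 32 and 178 of the 509, and Rora in 24 and 252. For Il7r the counts were 26 and 345, shares of 81.3% (63.6% to 92.8%) and 67.8% (63.5% to 71.8%) whose intervals overlap. Areg, which encodes a tissue repair factor, was found in 16 of the 32 and 9 of the 509, and Klrg1 in 14 and 26. The regulatory T cell genes Ikzf2, Ctla4 and Foxp3 were found in 20, 11 and 9 of the 32 and in 215, 72 and 15 of the 509, and the shares of Ikzf2, 62.5% (43.7% to 78.9%) and 42.2% (37.9% to 46.7%), overlap in their intervals. Of 10 T cell markers, Cd3e, Cd3d, Cd3g, Trac and Trdc were found in smaller shares of the 32 with intervals that do not overlap (56.3% against 80.4% for Cd3e, 0 of 32 for Trdc), Icos in a larger share (81.3% against 45.6%), and Trbc2, Cd5, Cd28 and Lat in shares whose intervals overlap (87.5% and 88.2% for Trbc2). Il13 and Il5 were each found in 1 cell. Markers of type 2 innate lymphoid cells and of regulatory T cells were thus both present among them, with Kit in 15 and the other 8 mast cell and basophil markers in none.

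Il1r2, the decoy, was highest in neutrophil-like cells at 1434 CPM (1345 to 1528) on day 3 and 962 CPM (864 to 1067) on day 7, a ratio of 0.670. Dendritic-like cells had 96.3 CPM (84.7 to 109), 270 CPM (254 to 286) and 127 CPM (89.7 to 174), with ratios to day 3 of 2.80 (2.44 to 3.22) and 1.32. Without the 5% of cells with most UMIs the log2 difference of day 7 fell from 1.39 to 0.90. Cluster 2, which carries Cd209a and class II genes, held 249 of 250 UMIs on day 3 and 955 of 1135 on day 7, and was itself at 111 and 265 CPM. The Ccr7, Fscn1 and Ccl22 cluster had 3.05 and 18.7 CPM on those days. In monocyte/macrophage-like cells the decoy was at 15.2, 57.5 and 8.22 CPM, the ratio to day 3 being 3.77 (2.95 to 4.88) on day 7 and 0.540 (0.267 to 1.00) on day 14, so it was highest on day 7 and on day 14 at or below its day 3 level. The neutrophil markers in these sums moved alongside as a total, at 100.4, 198 and 43.2 CPM. Among them S100a9 (13.2, 6.80 and 0 CPM) and S100a8 (20.0, 5.92 and 2.05 CPM) were lower on day 7 than on day 3. The part of these markers was not tested.

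Fibroblast-like cells had little Il1r2, with 0.897 CPM (2 UMIs in 1 cell) on day 0 and 10.3, 5.91 and 5.03 CPM from 47, 30 and 45 UMIs afterwards. Relative to day 0 this was 11.5-fold (3.02 to 98.0) on day 3, 6.59-fold (1.67 to 56.9) on day 7 and 5.60-fold (1.46 to 47.7) on day 14, with intervals as wide as 2 reference UMIs make them. As a mean over cells, with the shallower barcode copies kept, the levels of days 3, 7 and 14 were 3.58, 5.94 and 15.6 CPM. They were thus in the opposite order. Against the signalling receptor, this class held 2.35, 7.34, 6.51 and 8.82 Il1r2 UMIs per 100 Il1r1 UMIs on the 4 days. On day 3, 43 of the 47 UMIs lay in cluster 20, and on day 14, 33 of the 45 lay in cluster 14. Of the 95 Il1r2 UMIs of day 14, fibroblast-like cells held 45 and dendritic-like cells 38.

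Nlrp3, the sensor that nucleates the inflammasome, had 3 UMIs on day 0, in 1 monocyte/macrophage-like cell. Neutrophil-like cells had 928 CPM (857 to 1004) on day 3 and 751 CPM (666 to 845) on day 7, a ratio of 0.810. Monocyte/macrophage-like cells had 70.1 CPM (62.9 to 78.0), 109 CPM (102 to 116) and 242 CPM (218 to 269), with ratios to day 3 of 1.55 (1.37 to 1.76) and 3.46 (2.97 to 4.02). The level was higher in each later library. Dendritic-like cells had 39.7, 41.6 and 110 CPM, with ratios of 1.05 and 2.77 (1.82 to 4.14), and the day 14 level was 60.6 CPM as a mean over cells. The day 3 level lay between 36.3 and 46.0 CPM over the alternatives, so as a mean over cells day 14 was not past 2-fold.

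By cluster, Nlrp3 stayed at 151, 123 and 110 CPM in cluster 0, while the C1qb and C1qa cluster 1 had 54.3, 118 and 290 CPM (260 to 323). Cluster 1 was thus below cluster 0 on day 3 and above it on day 14, when it held 137 of the 195 cells of the class. Clusters 7, 9 and 19 were at 81.7 CPM or less on each day they could be read. Cluster 18 of the dendritic-like class had no Nlrp3 UMI on days 3 and 7. Fibroblast-like cells were at 0, 1.32, 1.38 and 0.335 CPM, and none of them had a Nlrp3 UMI at 1000 UMIs per cell, against 47.1% and 48.2% of neutrophil-like cells and 7.57%, 9.12% and 10.6% of monocyte/macrophage-like cells.

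**Figure D5:**
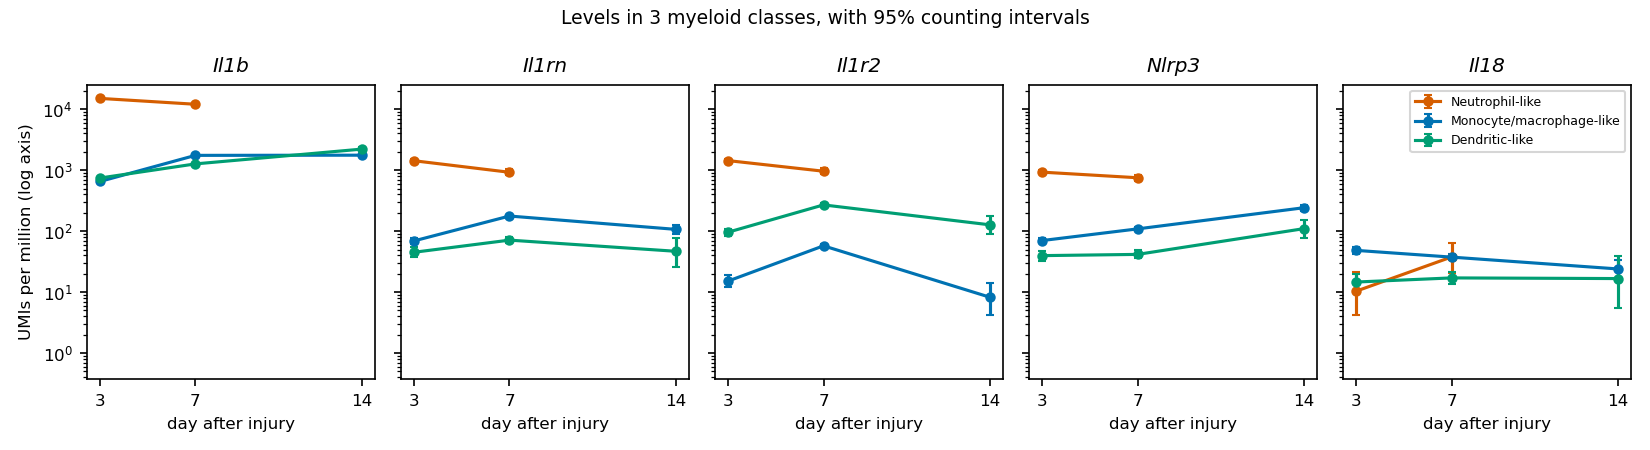
Levels of 5 genes (CPM on a shared logarithmic axis, bars for 95% counting intervals) in neutrophil-like, monocyte/macrophage-like and dendritic-like cells on days 3, 7 and 14. Neutrophil-like cells lie highest for Il1b, Il1rn, Il1r2 and Nlrp3 on days 3 and 7, Nlrp3 in monocyte/macrophage-like cells goes from 70.1 to 242 CPM, and Il18 in the same cells from 48.3 to 24.0 CPM.

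Counted over the set, fibroblast-like cells had 4 members at least 2-fold higher and 1 lower of 7 compared on day 3, where 9.40% of all genes compared were higher and 10.6% lower. Il1b, Il1r1, Il1r2 and Il1rl1 were higher, the last from 1 cell, and Il18 was lower. On day 7, 3 of 6 were higher (Il1b, Il1r1, Il1r2; background 10.9%) and 2 lower (Il1rap, Il18; 8.13%), and on day 14, 1 of 5 was higher (Il1r2; 9.12%) and 0 lower (4.63%). In smooth muscle-like cells Il1r1 on all days and Il1rap on day 7 were compared and were not past 2-fold. Il1b, with no UMI on day 0 and a floor of 28.9 CPM above its later 7.09 and 15.5 CPM, could not be called in either direction. Of all genes compared in that class 11.2%, 12.9% and 10.4% were higher and 14.4%, 10.9% and 10.4% lower on the 3 days.

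Monocyte/macrophage-like cells had 5 of 9 members higher on day 7 (Il1a, Il1b, Il1rn, Il1r2 and Il33; background 6.06%) and 0 lower (4.14%). Their day 14 sum had 3 of 7 higher (Il1b, Il1rl1 and Nlrp3; 5.93%) and 2 lower (Il1rap and Il18; 8.86%). Of the higher members, Il1b as a mean over cells and Il1rl1 under at least 1 alternative were not past 2-fold. The Il33 entry of day 7 rests on 4 and 19 UMIs. Fibroblast markers in the same sums were at 407 and 749 CPM on days 3 and 7, and their part in it was not tested. The Il1a entry of day 7 changed direction as a mean over cells. Dendritic-like cells had 1 of 7 higher (Il1r2; 4.19%) and 1 lower (Il1rl1; 3.34%) on day 7, and 2 of 7 higher (Il1b and Nlrp3; 7.43%) and 0 lower (12.5%) on day 14. As a mean over cells the Nlrp3 entry was not past 2-fold. In neutrophil-like cells Il18 alone of 7 members was higher on day 7 (6.91%) and 0 were lower (5.83%). T cell-like cells had 2 of 4 higher on day 7 (Il1b and Il1r2; 7.51%) and 3 of 3 on day 14 (Il1b, Il1r1 and Il1rl1; 6.61%), with 0 lower on either day (4.47% and 5.53%). On day 7, 28 of 40 Il1r2 UMIs lay in 1 cell. The log2 ratio of Il1b that day went down to 0.12 over the alternatives, no longer past 2-fold. On day 14, 103 of 104 Il1b UMIs lay in 1 cell, and the log2 ratio was -1.46 without the 5% of cells with most UMIs. The log2 ratio of Il1rl1 on day 14 went down to 0.34, also no longer past 2-fold. In NK cell-like cells 1 member could be compared on day 7 and it was not past 2-fold (7.63% higher, 5.42% lower), and 0 on day 14 (5.09% higher, 7.67% lower).

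Other genes of the pathway were read from 4 gene lists. Of the genes known to respond to IL-1 through NF-κB, fibroblast-like cells had 11 of 12 compared at least 2-fold higher on day 3, 11 of 12 on day 7 and 6 of 12 on day 14, and 0 lower on each day, where 9.40%, 10.9% and 9.12% of all genes were higher and 10.6%, 8.13% and 4.63% lower. Monocyte/macrophage markers in the same sums were at 31.4 CPM on day 0 and 364, 218 and 170.0 CPM afterwards (5, 11, 11 and 10 of 12 found). Over all days, Plac8 made up 464 of the 501 CPM of these markers in cluster 20, 279 of 289 in cluster 14 and 81.2 of 107 in cluster 3. In cluster 15 it was 2.48 of 12.0 CPM. C1qa was at 4.59, 2.60 and 3.86 CPM in clusters 20, 14 and 3. The part of these markers in the list counts was not tested. The exceptions in the NF-κB list were Icam1 on day 3 and Mmp3 on day 7, and the 6 higher on day 14 were Nfkbiz, Cxcl1, Cxcl2, Ccl2, Il6 and Saa3. The median log2 difference of the list, with 10 CPM added to each level, was 2.19, 1.73 and 0.67, against -0.07, -0.01 and -0.01 over all genes compared. On plain ratios, with nothing added and the 2 genes at 0 on day 0 set to the floor, it was 2.52, 1.96 and 1.16. Saa3, an acute phase gene, had no UMI on day 0 and 4069 CPM on day 3, at least 3024-fold higher. Ccl2, the monocyte chemokine, was at 0.449 CPM from 1 UMI and then at 984 CPM, and Cxcl1, a neutrophil chemokine, at 11.2 and 650 CPM. Il6 was at 0.449, 68.4, 36.6 and 31.7 CPM over the 4 days, and the stromelysin gene Mmp3 at 618, 1939, 456 and 509 CPM. These genes also respond to other cytokines, and which signal acted on them was not measured.

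Of 9 genes of IL-1 receptor signalling compared in fibroblast-like cells, 0 were past 2-fold in either direction on any day, where 9.40% of all genes were higher and 10.6% lower on day 3. A count of 0 of 9 is near that background and is not read as a result. Irak1 was at 90.1 CPM on day 0 and 79.7 CPM on day 3, and Tab2 at 49.3 and 51.1 CPM. Of 7 genes of inflammasome assembly 1 was higher on each day and 1, 1 and 0 were lower, which is near the background shares given above and is not read as a result. Casp4, the sensor of the noncanonical pathway and the 1 higher, was at 4.04, 18.7, 23.0 and 16.2 CPM. Txnip, a redox regulator that can bind NLRP3 and the 1 lower on days 3 and 7, was at 549, 39.4, 72.7 and 445 CPM. In smooth muscle-like cells the NF-κB list had 4 higher and 2 lower of 9, 8 and 0 of 11, and 4 and 2 of 9 on days 3, 7 and 14, where 11.2%, 12.9% and 10.4% of all genes were higher and 14.4%, 10.9% and 10.4% lower. The day 0 sum held 19 cells, 12 of them in cluster 25 with a median of 978.5 UMIs, whereas 54 of the 67 cells of day 7 lay in cluster 13 with a median of 18220. Cluster 25 held 4 more, and the others of day 7 came from cycling clusters. Cluster 13 held only 45 of the 75 Il1r1 UMIs and 12 of the 29 Il1rap UMIs of that day. Cycling cluster 26 had Cnn1 at 42.5 CPM and Pdgfra at 152 CPM, against 777 and 16.2 CPM in cluster 13. The part of cycling cells in the list counts was not tested. The fibroblast markers summed to 3185, 6840, 15083 and 7227 CPM in the same sums on days 0, 3, 7 and 14, with 8 of 10 markers found on day 0 and 10 of 10 afterwards, and their part in these counts was not tested. The lower genes on days 3 and 14 were Nfkbiz and Tnfaip3, feedback genes of the pathway, at 337 and 57.7 CPM on day 0. Vcam1, a leukocyte adhesion gene, was there at 28.9 CPM from 3 UMIs and then at 576, 1406 and 182 CPM.

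Over all genes in monocyte/macrophage-like cells, 6.06% were higher and 4.14% lower on day 7, and 5.93% and 8.86% on day 14. Of the inflammasome list 0 of 10 genes were past 2-fold on day 7, near that background, and on day 14 the sensor gene Nlrp1b was the 1 higher, at 13.4 CPM on day 3 and 29.4 CPM on day 14, and Pycard, which encodes the adaptor ASC, the 1 lower, at 276, 174 and 119 CPM. Nlrp3, which is a member and not in this list, was in the same cells 3.46-fold higher on day 14. The NF-κB list had 7 higher and 2 lower of 12 on day 7 and 6 and 2 of 11 on day 14. The higher share was above the background on both days, and the counts of 2 lower are not read as a result. Fibroblast markers in these sums were at 407, 749 and 773 CPM on days 3, 7 and 14, and neutrophil markers at 100.4, 198 and 43.2 CPM. Their part in the counts, and that of the changed cluster makeup given with Il1b, was not tested. Nfkbia, the feedback inhibitor of NF-κB, was at 439, 1113 and 2227 CPM and Cxcl2, a neutrophil chemokine, at 1054, 2501 and 5228 CPM. By contrast, Ccl2 was at 1316, 543 and 458 CPM and Saa3 at 175, 7.35 and 0 CPM. Saa3 was also lower on day 7 than on day 3 in fibroblast-like cells (4069 and 640 CPM) and in neutrophil-like cells (87.6 and 16.2 CPM), and the part of free RNA in its immune levels was not tested. Of the signalling list 0 of 10 were past 2-fold on day 7, and on day 14 the adaptor gene Myd88 was the 1 lower of 9, at 84.8 CPM on day 3 and 40.4 CPM on day 14. In dendritic-like cells the NF-κB list had 2 higher (Icam1, Vcam1) and 2 lower (Ccl2, Saa3) of 11 on day 7 and 5 higher (Nfkbia, Nfkbiz, Tnfaip3, Ptgs2, Icam1) and 0 lower of 8 on day 14, and 0 inflammasome genes of 10 and 8 were past 2-fold, where 4.19% and 7.43% of all genes were higher and 3.34% and 12.5% lower.

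Neutrophil-like cells combined high Nlrp3 and Il1b with little of the adaptor: over both days Pycard was at 28.7 CPM there, from 30 UMIs, against 201 CPM in monocyte/macrophage-like and 247 CPM in dendritic-like cells over all days. Casp1 was at 12.4 CPM (13 UMIs) against 59.6 and 53.8 CPM in the same classes. Casp4 was highest in neutrophil-like cells, at 149 CPM. On day 7 against day 3 they had 1 higher (Gsdmd, the pore-forming effector) and 0 lower of 6 inflammasome genes, 0 higher and 1 lower (Tollip) of 9 signalling genes, and 1 higher (Vcam1) and 2 lower (Ccl2, Saa3) of 10 NF-κB genes. Over all genes 6.91% were higher and 5.83% lower. These counts of 0 to 2 genes are too small to set against those shares and are not read as a result. All 4 genes compared of the remaining family (Il1f9, Il18rap, Il18r1 and Il1rl2) were lower, with Il1f9 (IL-36γ) at 823 and 372 CPM and the IL-18 receptor chain gene Il18rap at 172 and 80.8 CPM.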

How the data were processed

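The 10 members and the gene lists were chosen with earlier results of these data known. The deposited files hold raw UMI counts per gene and barcode, made by the authors with Cell Ranger (3.0.2 per the file headers) for 4 libraries, 1 per day. The genome build of the count matrices was not used, and the promoter sequence came from build GRCm38.p6. Barcodes with under 200 genes or over 20% mitochondrial UMIs were removed (453 barcodes), as were Scrublet doublets at 0.8% per 1000 barcodes. Scrublet's own threshold marked 17 barcodes, so the expected number in each library, 106 in all, was taken from the top of its score. Cells were clustered with scanpy 1.11.5 and leidenalg 0.10.2 (2000 variable genes without members and pathway genes, 30 components, 15 neighbours, resolution 1). A cluster was named where at least 3 markers of a class were detected and no other class had more among its 10 leading genes, shallow clusters that mixed stromal and immune markers stayed unnamed, and cells of 2 cycling clusters took the class of most of their neighbours. This naming rule was settled after the clusters were seen, so differences from the study may come from rebuilt names. Members were summed per class and day, and intervals came from scipy 1.17.1. A member or list gene counted as higher or lower at 2-fold or more with at least 20 UMIs over both sums of at least 10 cells, and a sum of 0 was set to a floor of 3 UMIs. For logs 10 CPM was added. Every member is described. List genes named were the 3 of each list with most UMIs in a class and those past 4-fold, while other list genes past 2-fold, later days of a named gene and levels over all days were added after values were seen. The summing was tested on simulated data. Total UMIs per library were 2672722, 18989081, 27973418 and 13329564. Alternatives changed the log offset, doublets, mitochondrial limit, clustering, weighting of cells and shared barcodes.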

Additional observations from a re-analysis of the deposited data

How the results depend on the processing

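No paired analysis was possible because each day is 1 library, and no replicate could be left out. Over the alternatives run, 2 of the 31 ratios past 2-fold changed sign under at least 1. For Il1a in monocyte/macrophage-like cells, day 7 against day 3, the log2 ratio with 10 CPM added was 0.24 and -0.23 as a mean over cells. For Il1b in T cell-like cells, day 14 against day 3, it was 2.75 and -1.46 without the 5% of cells with most UMIs, which removes the cell that held 103 of the 104 UMIs. Among the ratios the text turns on, those moved beyond counting error were, for Il1r1 in fibroblast-like cells on day 3 (1.65), 1.11 with 50 CPM added and 1.08 as a mean over cells. For Il33 in the same comparison (0.09) it was -0.080 with doublets kept. For Il1b in monocyte/macrophage-like cells on day 7 (1.41) it was 1.55 with each library clustered on its own, 1.48 at a 10% mitochondrial limit and 1.33 without the 5% of cells with most UMIs, and on day 14 (1.42) it was 0.91 as a mean over cells, 1.56 at the 10% limit and 1.28 without those cells. For Il1rn on day 7 (1.24) it was 0.93 with 50 CPM added, and for Nlrp3 on day 14 (1.66) 1.28 with 50 CPM added and 1.33 as a mean over cells. The cause was not tested. Of 69 ratios, 24 moved as a mean over cells, 20 with 50 CPM and 15 with 1 CPM added. Ratios not past 2-fold also changed sign, among them Il1rap in fibroblast-like cells on day 3 (-0.49 to 0.37) and Il1rn in monocyte/macrophage-like cells (0.56 to -0.28) and Il1rl1 in dendritic-like cells (-0.028 to 0.80) on day 14, all as a mean over cells, and Il1r2 in dendritic-like cells on day 14 (0.36 to -0.21) with each library clustered on its own. Levels moved most as a mean over cells (34 of 85) and with each library clustered on its own (16 of 85). At Leiden resolution 0.5, 6 comparisons could not be made for want of 10 cells.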

Other observations

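The remaining IL-1 family had its own distribution. Il1f9, which encodes IL-36γ, had 692 UMIs in neutrophil-like cells (662 CPM over both days) and 32.5 CPM from 4 UMIs in plasmacytoid dendritic-like cells, with under 1 CPM in the other named classes. Il1f5, Il1f6, Il1f8 and Il1f10 gave 0 UMIs in the cells kept. The IL-18 receptor chain gene Il18r1 was at 298 CPM in NK cell-like and 262 CPM in T cell-like cells, and Il18rap at 274, 93.9 and, in neutrophil-like cells, 140 CPM. Il1rl2, the IL-36 receptor gene, was at 2.24, 15.4, 5.91 and 14.3 CPM in fibroblast-like cells on days 0, 3, 7 and 14, and Il18bp, which encodes the binding protein of IL-18, at 3.14 and 9.46 CPM on days 0 and 3.

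Over 30 sums of class and day, 12602 genes were ranked by Pearson's r with each member, as a description, since the sums share libraries. Nearest to Il1b were Igsf6 (0.955), Bcl2a1a (0.943) and Rasgrp4 (0.941). Nlrp3 lay nearest to Cd33 (0.984) and F630028O10Rik (0.952), Il1rn to Sirpb1b (0.978), Il1r2 to Gca (0.949) and Il1a to Gm13822 (0.956). The stromal members lay nearest to Wnt2 (Il33, 0.976) and to Ryk (0.895) and Angptl2 (0.887) for Il1r1. Il1rap lay nearest to Ptgs2os2 (0.889), Il1rl1 to Tns4 (0.853) and Il18 to Dnase1l1 (0.851).

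The unnamed cells also held members, with Il1b at 77.9, 288 and 165 CPM on days 3, 7 and 14 and Il33 at 63.7 CPM on day 3. Of the 419 unnamed cells of day 7, 250 had an Il1b UMI.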
